A study of Mus musculus with 18 samples.

Results

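The 10 genes described here move, store and sense iron in the mouse liver: Trf, Tfrc, Tfr2, Slc39a14, Fth1, Ftl1, Slc40a1, Cp, Hfe and Hpx. They were listed by symbol for their roles in iron handling, with earlier results of these data known but no measured value in the rule, and all 10 were found among the 19057 symbols of the liver RNA sequencing table. All 10 passed the filter on low values in every comparison. Livers of male ICR mice, an outbred stock, were sampled at 10 weeks of age, with 3 mice in each of 6 groups. Con mice received a regular diet and saline. STZ mice received 1 injection of streptozotocin, a toxin of insulin-producing beta cells. A10-FMT mice received STZ and then, by mouth, gut microbiota of donors given alginate oligosaccharide (AOS) at 10 mg/kg. Con-FMT mice received STZ and then microbiota of control donors dosed with water, and donor gut content was pooled in both transplants. AOS mice received AOS at 10 mg/kg without STZ, and STZ+AOS mice received both. Whole liver was read, so fewer cells of a type and less RNA per cell cannot be told apart.

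Iron travels in plasma on transferrin, the product of Trf, which hepatocytes secrete. Cells take it up through transferrin receptor 1 (Tfrc), and hepatocytes also take up iron that is not bound to transferrin through the zinc transporter family member Slc39a14. Iron that is not used is held in ferritin, a shell of heavy (Fth1, which oxidises the iron) and light (Ftl1) chains. It leaves through ferroportin (Slc40a1), the known iron exporter, with help from the ferroxidase ceruloplasmin (Cp). Hfe and transferrin receptor 2 (Tfr2) sense iron in hepatocytes and act on hepcidin (Hamp), the liver hormone that closes ferroportin. Hemopexin (Hpx) binds free heme in plasma. Transcripts of this system carry iron-responsive elements, short stem-loops bound by the iron regulatory proteins (Aco1 and Ireb2). Bound near the 5′ end they hold back translation, and bound near the 3′ end of Tfrc they protect the transcript from decay.

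Elements of this kind are shown because they tie 4 of the 10 genes to the same regulatory proteins. Transcripts were searched on their own strand for the letters CNNNNNCAGTGN in which the 5 bases before the loop could pair with the 5 after it (G with T allowed). In the sequences, read 5′ to 3′ from GENCODE M21 transcripts (build GRCm38, which is mm10), the capitals mark the bulged C and the loop. Fth1 held 1 match in its 5′ UTR (chr19:9982733-9982760, plus strand), Ftl1 held 1 in its 5′ UTR (chr7:45459779-45459806, minus strand) and Slc40a1 held 1 in its 5′ UTR (chr1:45925465-45925492, minus strand). Tfrc held 4 in its 3′ UTR (plus strand), at chr16:32631220-32631247, chr16:32631599-32631626, chr16:32631664-32631691 and chr16:32631711-32631738.
Fth1: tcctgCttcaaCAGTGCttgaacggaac
Ftl1: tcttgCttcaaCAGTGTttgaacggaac
Slc40a1: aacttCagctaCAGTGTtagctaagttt
Tfrc, the first: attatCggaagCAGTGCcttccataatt
Tfrc, the second: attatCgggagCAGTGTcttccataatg
Tfrc, the third: tatatCggagaCAGTGAtctccatatgt
Tfrc, the fourth: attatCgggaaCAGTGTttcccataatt

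With 1 transcript taken per annotated gene, 21 of 19580 genes with a 5′ UTR of at least 28 bases (0.107%) held such a match there, and 111 of 20554 genes with such a 3′ UTR (0.54%). A match is a description of the letters, and protein binding was not measured. The other 6 members, Trf, Tfr2, Slc39a14, Cp, Hfe and Hpx, held no match in either UTR.

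Values are RPKM, a read number corrected for how long the transcript is and how deeply the library was mapped, so levels can be set side by side between genes. Reads per library cannot be read from RPKM. The steps between the low values of 96 genes gave a relative depth of 0.959 to 1.08 for the 18 libraries. Only genes whose values lay close to multiples of a common step were used, so a large difference in depth could not have been shown. The label of liver was checked with 6 hepatocyte markers, led by Alb, the serum albumin gene, which summed to 33509 to 54873 RPKM in a library, against 98.5 to 381 RPKM for 11 Kupffer cell and macrophage markers. STZ mouse 3 stood apart from its group, with 28.5% of its summed RPKM in its 10 most abundant genes, against 19.1% and 19.02% in STZ mice 1 and 2 and 33.6% to 39.0% in Con. Together the 10 genes made up 2.06% to 3.91% of the summed RPKM of a library, with the highest share in STZ+AOS mouse 1.

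In Con livers the levels ran over 3 orders of magnitude. Trf was the most abundant member, at 8608 ± 587 RPKM (SD, n = 3), and Tfrc the least, at 6.23 ± 0.165 RPKM. Between them lay, in falling order, Hpx (3913 ± 1841 RPKM), Ftl1 (3499.8 ± 134 RPKM), Fth1 (1360 ± 46.4 RPKM), Cp (400.1 ± 94.4 RPKM), Tfr2 (109 ± 3.73 RPKM), Slc40a1 (39.4 ± 3.56 RPKM), Slc39a14 (27.1 ± 0.715 RPKM) and Hfe (23.9 ± 0.596 RPKM). Each neighbour in that order was apart in all 3 mice except Hpx and Ftl1, whose values overlapped. In STZ the ranges of Ftl1 and Hpx, of Hpx and Fth1, and of Slc40a1 and Slc39a14 overlapped. Levels of Fth1 and Ftl1 are uncertain to the extent that reads of their processed pseudogenes were counted with them.

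**Figure D1:**
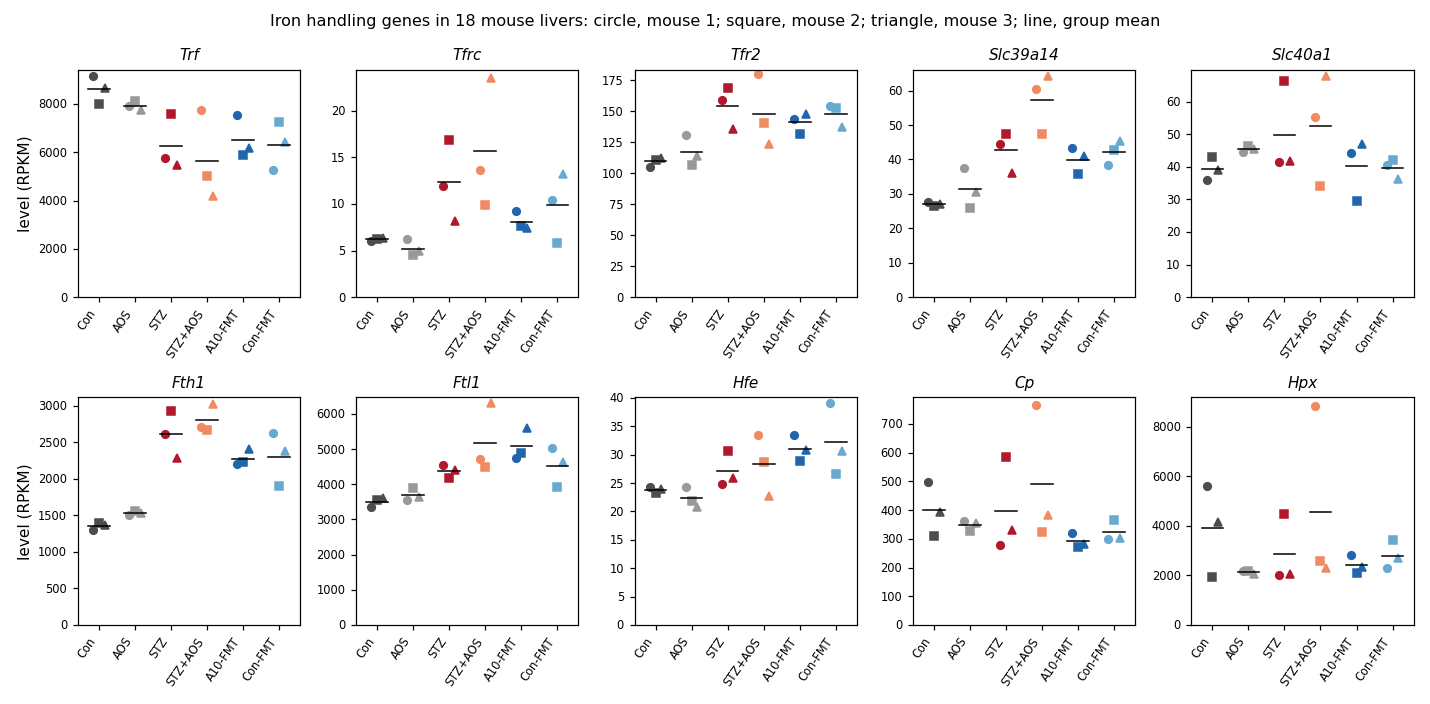
Level (RPKM, linear axes from 0) of the 10 iron handling genes in the 18 livers, by group; each symbol is 1 mouse and the line is the group mean. All 12 mice that received STZ lie above all 6 others for Fth1, while Hpx and Cp are spread widely within Con, STZ and STZ+AOS.

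The comparison of STZ with Con asks how iron handling transcripts differed in the diabetic liver. Of the 10 genes, 4 were higher and none was lower in STZ (limma, Benjamini-Hochberg adjusted p under 0.05), namely the storage gene Fth1 and the uptake and sensing genes Slc39a14, Tfrc and Tfr2. In the same test 38.5% of all 10602 genes were called and 33% were called higher, so the share of members called was near the background. The median change of the members was 0.31 on the log2(RPKM + 1) scale, against 0.21 over all genes. Since that shift of all genes depends on scaling, the members' changes with STZ in this comparison and in STZ+AOS against AOS are also given after median-ratio scaling, in which a library is divided by the median, over genes, of its values relative to the geometric mean across libraries. This put the median of all genes at -0.0097, moved the calls over all genes from 3502 higher and 585 lower to 1480 higher and 1391 lower, and called 27.1% (14% higher and 13.1% lower). After it 3 members were called, Fth1 and Slc39a14 as higher and Trf as lower. The p-values measure the spread between these mice.

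Fth1, the ferritin heavy chain (chr19:9980598-9985098, GRCm38), was at 1307, 1396 and 1376 RPKM in Con mice 1 to 3 and at 2620.45, 2926 and 2289 RPKM in STZ mice 1 to 3. The lowest STZ mouse, mouse 3, lay well above the highest Con mouse. The difference was 0.93 ± 0.17 (log2 change ± SE, n = 3 per group, limma adjusted p = 0.00217), or 1.91-fold, and it was 0.66 (adjusted p = 0.00446) after median-ratio scaling. Fth1 stayed called in 21 of 21 alternatives, and without STZ mouse 3 the change was 1.03 (adjusted p = 0.000629). Ftl1, the ferritin light chain, was at 3346, 3559.9 and 3594 RPKM in Con and at 4532, 4181 and 4415 RPKM in STZ. Every STZ mouse was above every Con mouse, yet the change of 0.32 ± 0.17 did not pass the test (limma adjusted p = 0.151) with 0.051 (adjusted p = 0.823) after median-ratio scaling and 0.92 (adjusted p = 0.0058) after quantile normalization.

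Slc39a14, the importer of iron not bound to transferrin (chr14:70303469-70351425), was at 27.8, 26.4 and 27.1 RPKM in Con and at 44.5, 47.5 and 35.9 RPKM in STZ. STZ mouse 3 was again the lowest of its group, and the groups did not overlap. The level was 1.54-fold higher (0.63 ± 0.12, limma adjusted p = 0.0026), and 0.36 higher on the log2 scale (adjusted p = 0.0326) after median-ratio scaling. Slc39a14 was called in 21 of 21 alternatives.

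Tfrc, the transferrin receptor of most cells (chr16:32608920-32632794), was at 6.06, 6.23 and 6.39 RPKM in Con and at 11.96, 16.9 and 8.12 RPKM in STZ. Con mice lay close together, whereas the STZ mice spread from mouse 3, the lowest, to mouse 2, the highest. The change was 0.83 ± 0.26 (limma adjusted p = 0.0296). The call was lost in 8 of 21 alternatives, at adjusted p = 0.0932 after median-ratio scaling, 0.097 after quantile normalization and 0.0564 without the filter on low values. It was also lost without Con mouse 1 (0.0798), Con mouse 2 (0.0629), Con mouse 3 (0.0671), STZ mouse 1 (0.0669) or STZ mouse 2 (0.12), with the change staying at 0.59 or above. Tfr2, the hepatocyte receptor that senses transferrin iron (chr5:137569840-137587481), was at 105, 111 and 113 RPKM in Con and at 159, 169 and 136 RPKM in STZ. The groups did not overlap, and the change was 0.49 ± 0.11 (limma adjusted p = 0.00548), but only 0.22 (adjusted p = 0.0734) after median-ratio scaling.

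Trf was the member that lay lower in STZ in every mouse, at 9165, 7996 and 8664 RPKM in Con and 5766, 7598 and 5453 RPKM in STZ. STZ mouse 2 came closest to Con. The change of -0.47 ± 0.22 did not pass the test as deposited (limma adjusted p = 0.104), passed it after median-ratio scaling (-0.74, adjusted p = 0.0262) and had the other sign after quantile normalization (0.50, adjusted p = 0.236). Slc40a1, the exporter, was at 35.96, 43.1 and 39.1 RPKM in Con and at 41.4, 66.3 and 41.6 RPKM in STZ, where mouse 2 alone was far above Con. Its change was 0.30 ± 0.20 (adjusted p = 0.25, limma), 0.034 after median-ratio scaling and 0.079 without STZ mouse 2. Hfe, at 24.4, 23.2 and 24.0 RPKM in Con and 24.9, 30.7 and 25.9 RPKM in STZ, changed by 0.18 ± 0.13 (limma adjusted p = 0.306), with the other sign after median-ratio scaling (-0.086) and quantile normalization (-0.096), and by 0.087 without STZ mouse 2. In all, the mice of both groups did not overlap for 7 of the 10 members, against 47.7% of all genes tested.

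The comparison of STZ+AOS with AOS gives the effect of STZ in other mice, since its group means share no library with the comparison above. Its SE and p-values are not separate, because the spread was estimated over all 18 libraries, those of Con and STZ included. Again 4 of the 10 members were higher and none was lower (limma, adjusted p under 0.05), against 37.9% of 10822 genes called and 31.8% called higher. After median-ratio scaling 3 members were higher and 1, Trf, was lower. There 24.5% of all genes were called, 12.2% higher and 12.2% lower. As deposited, Fth1, Slc39a14 and Tfrc were called in both comparisons, and Ftl1 was called here in place of Tfr2. The median change of the members as deposited was 0.43, against 0.21 over all genes.

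Fth1 was at 1509, 1554 and 1536 RPKM in AOS and at 2706, 2669.9 and 3029 RPKM in STZ+AOS. The groups lay far apart, with a change of 0.87 ± 0.15 (limma adjusted p = 0.000693), or 1.82-fold. Slc39a14 was at 37.5, 26.0 and 30.6 RPKM in AOS and at 60.5, 47.4 and 64.2 RPKM in STZ+AOS. AOS mouse 1 was the highest of its group but below every STZ+AOS mouse, and the change was 0.85 ± 0.14 (adjusted p = 0.00069, limma), or 1.81-fold. Tfrc was at 6.22, 4.52 and 4.91 RPKM in AOS and at 13.6, 9.83 and 23.4 RPKM in STZ+AOS. Mouse 3 of STZ+AOS had the highest Tfrc of the 18 livers, and the change was 1.35 ± 0.29 (limma adjusted p = 0.00305), or 2.54-fold. These 3 genes were called in 26 of 26 alternatives, with changes of 0.62, 0.61 and 1.13 after median-ratio scaling.

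Ftl1 was at 3557, 3894 and 3635 RPKM in AOS and at 4709, 4480.4 and 6316 RPKM in STZ+AOS. STZ+AOS mouse 3 was the highest, and the change was 0.47 ± 0.17 (limma adjusted p = 0.0383), a call lost in 11 of 26 alternatives, among them median-ratio scaling (0.22, adjusted p = 0.319), no filter on low values (adjusted p = 0.198) and leaving out STZ+AOS mouse 3 (0.31, adjusted p = 0.15) or any 1 AOS mouse. Tfr2 was at 131, 107 and 114 RPKM in AOS and at 179.7, 141 and 124 RPKM in STZ+AOS. The groups overlapped, and the change of 0.33 ± 0.13 did not pass the test (limma adjusted p = 0.0596), with 0.081 after median-ratio scaling and 0.18 without STZ+AOS mouse 1. Trf was at 7914, 8109.6 and 7741 RPKM in AOS and at 7741, 5007 and 4207 RPKM in STZ+AOS, where mouse 1 was level with AOS. Its change was -0.54 ± 0.23 (adjusted p = 0.0758, limma), -0.78 (adjusted p = 0.0214) after median-ratio scaling, -0.79 (adjusted p = 0.0122) without STZ+AOS mouse 1 and 0.085 after quantile normalization. Slc40a1 did not pass the test (0.14 ± 0.23 as deposited), with the other sign after median-ratio scaling (-0.098) and quantile normalization (-0.016). Its sign also turned without STZ+AOS mouse 3, and its change was larger without STZ+AOS mouse 2. Hfe did not pass either (0.31 ± 0.14 as deposited, 0.075 after median-ratio scaling and 0.19 without STZ+AOS mouse 1).

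No difference between the effects of STZ with and without AOS passed the test, for the 10 members or for any other gene (limma interaction, 0% of 10822 genes called, 584 at an unadjusted p under 0.05, none of them a member). The interval of that difference was wide for Tfrc, from -0.36 to 1.40 on the log2 scale, and for Fth1 it ran from -0.51 to 0.37. In the average of both effects, over the same libraries, limma called 6 of the 10 members, against 55.6% of all genes called and 47.1% called higher. Fth1 (0.90 ± 0.10, adjusted p = 9.69e-06), Slc39a14 (0.74 ± 0.10), Tfrc (1.09 ± 0.21), Tfr2 (0.41 ± 0.09) and Ftl1 (0.40 ± 0.12) were higher, with the calls of Tfr2 (0.15, adjusted p = 0.154) and Ftl1 (0.14, adjusted p = 0.338) lost after median-ratio scaling. Trf was lower by this average (-0.50 ± 0.16, limma adjusted p = 0.0157), with the other sign after quantile normalization (0.28, adjusted p = 0.292) and the call also lost without the filter on low values (adjusted p = 0.126).

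**Figure D2:**
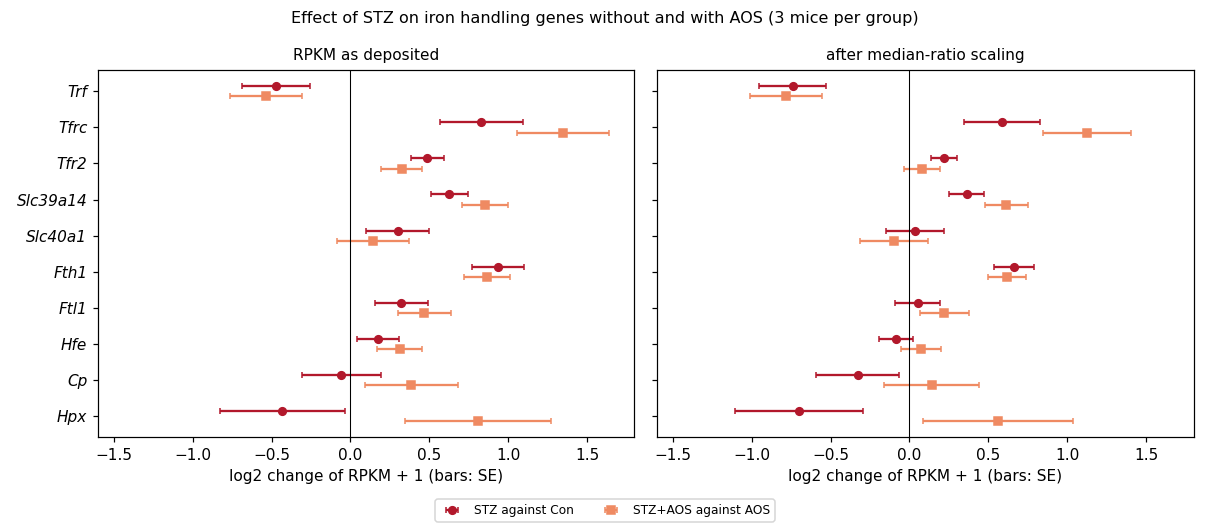
Change of log2(RPKM + 1) with STZ for the 10 genes (points) with its SE (bars), without AOS (circles) and with AOS (squares), from RPKM as deposited (left) and after median-ratio scaling (right). Fth1, Slc39a14 and Tfrc lie above 0 in all 4 sets, at 0.36 or more, and Trf lies below 0 in all 4 but above 0 after quantile normalization (not drawn). Hpx has opposite signs in the 2 comparisons, but not after quantile normalization (0.0033 and 0.98, not drawn). Cp also has opposite signs in both panels, and Hfe and Slc40a1 have them in the right panel only.

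Ratios within a library do not depend on scaling between libraries. The log2 ratio of the heavy to the light ferritin chain was -1.36 ± 0.018 in Con (SD, n = 3) and -0.75 ± 0.22 in STZ, and it was -1.27 ± 0.049 in AOS and -0.87 ± 0.17 in STZ+AOS. It was -1.15 ± 0.055 in A10-FMT and -0.98 ± 0.055 in Con-FMT. Every mouse that received STZ thus held more Fth1 per Ftl1 than every mouse that did not. The difference was 0.61 between STZ and Con and 0.40 between STZ+AOS and AOS, each with p = 0.1 in a two-sided exact permutation test, the smallest p that 3 mice against 3 allow. A10-FMT lay 0.40 below STZ with no overlap (exact permutation p = 0.1), a difference of -0.50 to -0.28 with 1 mouse left out. Con-FMT lay 0.23 below STZ (exact permutation p = 0.2), a difference of -0.11 without STZ mouse 2. A10-FMT lay 0.21 and Con-FMT 0.38 above Con (exact permutation p = 0.1 for each). For this ratio A10-FMT also differed from Con-FMT by -0.17 and AOS from Con by 0.096, both with no overlap (exact permutation p = 0.1 for each). The ratio of Tfrc to Tfr2, the general against the hepatocyte receptor, was -4.14 ± 0.015 in Con, -3.71 ± 0.37 in STZ, -4.49 ± 0.09 in AOS and -3.32 ± 0.80 in STZ+AOS. STZ and Con did not overlap (0.43, exact permutation p = 0.1), nor did STZ+AOS and AOS (1.17, exact permutation p = 0.1). Without STZ mouse 2 the former difference was 0.24, and without STZ+AOS mouse 3 the latter was 0.71. In A10-FMT this ratio was -4.13 ± 0.18, a difference of -0.42 from STZ (exact permutation p = 0.2, and -0.60 to -0.23 with 1 mouse left out). AOS differed from Con by -0.36 with no overlap (exact permutation p = 0.1). In Con-FMT the ratio ranged more widely than in any group but STZ+AOS (-3.99 ± 0.68). Over the 18 such tests every p adjusted by the Benjamini-Hochberg method was at or above 0.18.

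**Figure D3:**
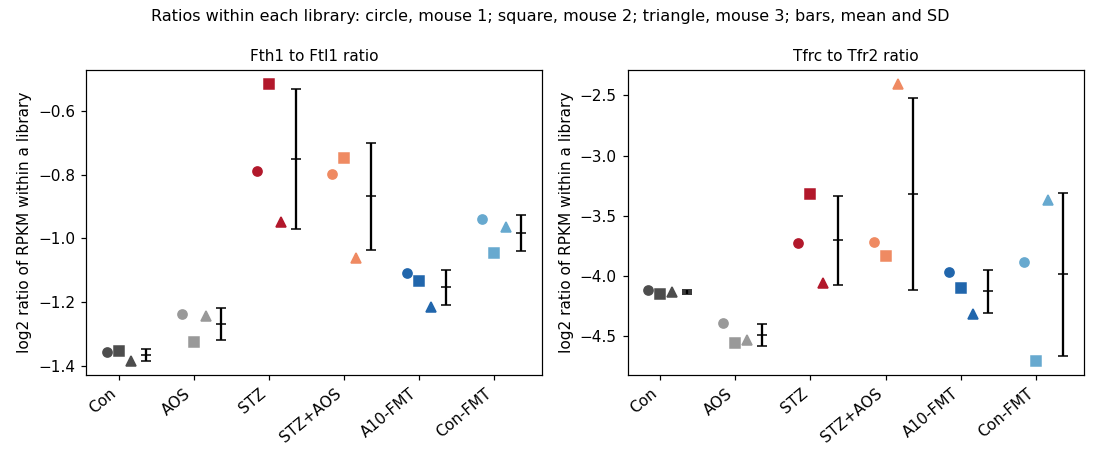
Log2 ratio of RPKM of Fth1 to Ftl1 (left) and of Tfrc to Tfr2 (right) within each library, by group; symbols are mice and bars the mean and SD of 3 mice. The 12 mice that received STZ all lie above the 6 others for Fth1 to Ftl1, with A10-FMT nearest to them.

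The transplant groups ask whether microbiota given after STZ moved these genes. None of the 10 members passed the test in A10-FMT against STZ (limma, 0.226% of genes called, 2212 of 10602 at an unadjusted p under 0.05), in Con-FMT against STZ (0.00943% called, 2131 at an unadjusted p under 0.05) or between the transplants (0% called, 303 at an unadjusted p under 0.05). After median-ratio scaling 0.726%, 0.689% and 0% of genes were called in these 3 comparisons, in that order, and again no member. As deposited no member reached an unadjusted p under 0.05 in them. After median-ratio scaling Hfe did in A10-FMT against STZ (0.26, limma unadjusted p = 0.0362, adjusted p = 0.195) and in Con-FMT against STZ (0.27, unadjusted p = 0.0285, adjusted p = 0.172). Ftl1 was the 1 member whose A10-FMT and STZ mice did not overlap, at 4746, 4888 and 5589 RPKM in A10-FMT against 4532, 4181 and 4415 RPKM in STZ, a change of 0.21 ± 0.17 (limma adjusted p = 0.511) on the side away from Con. Of all genes tested, 21.5% did not overlap in that comparison. In A10-FMT, Fth1 was at 2199.5, 2228 and 2407 RPKM, and in Con-FMT it was at 2627, 1899.8 and 2377 RPKM. Both groups overlapped with STZ, with changes of -0.19 (95% interval -0.55 to 0.17) and -0.19 (-0.55 to 0.17). Leaving out STZ mouse 2 made both of these smaller, as did leaving out Con-FMT mouse 2 for Con-FMT. Tfrc was at 9.19, 7.65 and 7.38 RPKM in A10-FMT, within or below the range of STZ, and at 10.46, 5.81 and 13.2 RPKM in Con-FMT, where mouse 2 was below every Con mouse. Its change from STZ was -0.51 in A10-FMT (interval -1.08 to 0.074, limma adjusted p = 0.297) and -0.31 in Con-FMT (interval -0.89 to 0.27). Both changes of Tfrc were much smaller without STZ mouse 2, and the one in Con-FMT also without Con-FMT mouse 2. The mean Slc39a14 level was 39.99 ± 3.74 RPKM in A10-FMT, 42.2 ± 3.49 RPKM in Con-FMT and 42.6 ± 5.98 RPKM in STZ.

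Against Con, with which both comparisons share the control mice, 4 members were higher in A10-FMT (18.4% of genes called, 15.9% higher and 10.9% called after median-ratio scaling) and 3 in Con-FMT (19.4% called, 17.5% higher and 8.17% called after median-ratio scaling). Fth1 was 0.74 ± 0.17 higher in A10-FMT (limma adjusted p = 0.0135) and 0.75 ± 0.17 higher in Con-FMT (adjusted p = 0.014). Slc39a14 was 0.54 ± 0.12 and 0.62 ± 0.12 higher, and Tfr2 0.36 ± 0.11 and 0.43 ± 0.11 higher. Ftl1 was 0.53 ± 0.17 higher than in Con in A10-FMT (limma adjusted p = 0.0493), a call lost in 14 of 21 alternatives. In Con-FMT it was at 5033, 3918 and 4641 RPKM and its change of 0.37 ± 0.17 did not pass. Fth1 kept its call after median-ratio scaling in both groups (adjusted p = 0.0223 and 0.0309, limma), Slc39a14 in Con-FMT only (0.0465, against 0.0675 in A10-FMT), and Tfr2 in neither. Over all 21 alternatives Fth1 lost its call in 4 in each group, without the filter on low values and without Con mouse 1, Con mouse 3 or 1 transplanted mouse (A10-FMT mouse 3, Con-FMT mouse 1), at an adjusted p of at most 0.0637 in A10-FMT and 0.0601 in Con-FMT. Tfr2 lost its call in 11 of 21 in A10-FMT and 5 of 21 in Con-FMT, and Slc39a14 in 3 of 21 and 1 of 21.

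None of the 10 genes passed the test in limma for AOS, against Con (0.00924% of genes called, 781 at an unadjusted p under 0.05) or against STZ (STZ+AOS, 0% called, 657 at an unadjusted p under 0.05). AOS and Con mice did not overlap for 2 of the 10 members, against 24.4% of all genes tested. These were Fth1, 0.17 ± 0.15 higher in AOS (limma adjusted p = 0.839), and Slc40a1, 0.21 ± 0.23 higher (adjusted p = 0.882). Slc39a14 was 0.42 ± 0.14 above STZ in STZ+AOS (95% interval 0.11 to 0.72), with an unadjusted p of 0.0106 in limma and an adjusted p of 0.806, and the groups overlapped by 1 mouse, STZ mouse 2, whose 47.5 RPKM exceeded the 47.4 RPKM of STZ+AOS mouse 2.

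Cp and Hpx, secreted by hepatocytes and both known acute-phase proteins, passed the test in no comparison and were spread widely within groups. Hpx was at 5610.4, 1956 and 4172 RPKM in Con, at 2024, 4465 and 2067 RPKM in STZ and at 8844, 2568 and 2287 RPKM in STZ+AOS. In each of these groups 1 or 2 mice stood far above the rest, while the AOS mice lay at 2191, 2165 and 2041 RPKM. The change was -0.43 ± 0.39 in STZ against Con (-0.70 after median-ratio scaling, 0.0033 after quantile normalization) and 0.81 ± 0.46 in STZ+AOS against AOS (0.56 and 0.98), and the difference of 1.24 ± 0.66 between them did not pass (limma interaction, adjusted p = 0.856). Without STZ+AOS mouse 1 the latter change was 0.19, while the former ran from -0.87 without Con mouse 2 (limma adjusted p = 0.0795) and -0.81 without STZ mouse 2 to -0.11 without Con mouse 1. Cp was at 498, 309 and 393 RPKM in Con, at 277, 585 and 331 RPKM in STZ and at 767, 323 and 382 RPKM in STZ+AOS. The same mice were high as for Hpx, and without STZ+AOS mouse 1 the change of Cp in STZ+AOS against AOS fell from 0.39 (0.14 after median-ratio scaling) to 0.011. In STZ against Con the change of Cp was -0.057 (-0.33 after median-ratio scaling), and it ran from -0.37 without STZ mouse 2 to 0.16 without STZ mouse 1.

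A list of 19 acute-phase genes, of which Fgb (fibrinogen beta chain) was the most abundant and none was at 0, was set beside these values. Its summed level was 41196, 14762 and 29497 RPKM in Con, 11426, 19406 and 11839.5 RPKM in STZ and 47803, 12866 and 12767 RPKM in STZ+AOS. The mouse with the highest sum was also the mouse with the highest Hpx and the highest Cp in 6 of 6 groups, and the full order of the 3 mice was the same in 5 of 6 groups for each. Of the list, 8 genes were lower and 2 higher in STZ than in Con (10 and 0 after median-ratio scaling), against 5.52% of all genes lower and 33% higher (13.1% and 14% after that scaling). In STZ+AOS against AOS 0 were lower and 5 higher (0 and 1 after median-ratio scaling), against 6.11% of all genes lower and 31.8% higher (12.2% and 12.2% after that scaling). Saa4, Saa2 and Saa3, serum amyloid genes, were lower in STZ, at log2 changes of -1.90, -5.44 and -3.33, and stayed called with each Con or STZ mouse left out in turn. Those of Saa2 ran from -6.81 without Con mouse 2 to -4.53 without Con mouse 1, and those of Saa3 from -4.48 to -2.55 without the same mice. Con itself was split, at 7018, 300 and 3826 RPKM for Saa2 and 344, 22.6 and 195 RPKM for Saa3. STZ mouse 2, at 272 RPKM for Saa2 and 25.7 RPKM for Saa3, was near Con mouse 2 for Saa2 and above it for Saa3. Every fit that left out 1 mouse still held Con mouse 1 or Con mouse 3. Trf and Hfe were also highest in the mouse with the highest acute-phase sum in 5 of 6 groups, Slc39a14 in 4, Tfrc and Tfr2 in 3 and Slc40a1 in 2. Ftl1 went the other way, being lowest in that mouse in 5 of 6 groups, and Fth1 was lowest there in 4 of 6. These orders were looked at after the values were seen. Without STZ+AOS mouse 1 the change of Fth1 in STZ+AOS against AOS was 0.89, and the part of the acute-phase genes' state in the changes of the 10 members was not tested.

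**Figure D4:**
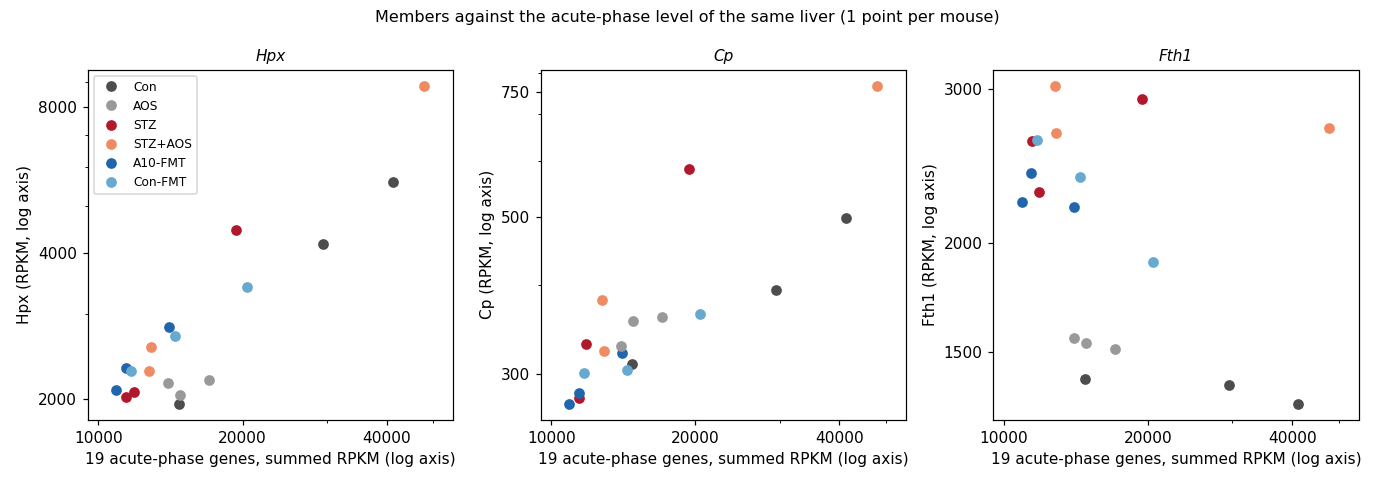
Level of Hpx, Cp and Fth1 (RPKM, log axes) against the summed RPKM of 19 acute-phase genes in the same liver (log axis); each point is 1 mouse, coloured by group. Hpx and Cp are highest in STZ+AOS mouse 1, which also has the highest sum (47803 RPKM), and Fth1 is higher in the 12 mice given STZ than in the 6 others.

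The hepcidin genes and their regulators were read as a list of 20 measured genes. Of these, 11 were higher and 0 lower in STZ than in Con (4 and 0 after median-ratio scaling). Beside this, 33% of all genes were called higher, and 14% after that scaling. In STZ+AOS against AOS 10 of the list were higher and 1 lower (6 and 1 after it). There 31.8% of all genes were called higher and 6.11% lower (12.2% and 12.2% after it). Hamp, the iron hormone itself, was at 2209.7, 4496 and 3113 RPKM in Con and at 7089, 4019 and 3188 RPKM in STZ. STZ mouse 1 alone lay above Con, and the change of 0.52 ± 0.35 did not pass (limma adjusted p = 0.258), running from 0.19 without STZ mouse 1 to 0.78 without Con mouse 2. In AOS it was at 4564, 1927 and 2566 RPKM and in STZ+AOS at 14508, 6974 and 4373 RPKM, a change of 1.43 ± 0.44 (limma adjusted p = 0.019) with STZ+AOS mouse 3 below AOS mouse 1. That call was kept in 3 of 6 fits that left out 1 of these mice, with a change of 0.97 (adjusted p = 0.0889) without STZ+AOS mouse 1. Hamp2, a related gene near Hamp in the genome, may share reads with it. Hamp2 was at 6.50, 2.96 and 4.32 RPKM in Con and at 129, 25.3 and 8.21 RPKM in STZ, 2.55 ± 0.93 higher (adjusted p = 0.0497, limma, and 0.0859 after median-ratio scaling). It was called in 1 of 6 fits that left out 1 mouse, and the change was 1.53 (adjusted p = 0.181) without STZ mouse 1.

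Id1, a target of the bone morphogenetic protein signal that also drives hepcidin, was at 3.77, 4.06 and 3.9 RPKM in Con and at 17.2, 14.0 and 11.2 RPKM in STZ, 1.61 ± 0.18 higher (limma adjusted p = 0.000342). Its change from STZ was -1.46 in A10-FMT (limma adjusted p = 0.0269) and -1.56 in Con-FMT (adjusted p = 0.0256), each called in 2 of 6 fits that left out 1 mouse of the groups compared, while Hamp did not pass the test in either. Il6ra, the interleukin 6 receptor (1.74 ± 0.22), and Smad4, a signal transducer (0.69 ± 0.10), were higher in STZ. Smad7, an inhibitor of the pathway, was 0.46 ± 0.15 higher, with the call lost after median-ratio scaling (limma adjusted p = 0.199) and in 5 of 6 fits that left out 1 mouse. Bmp6, the endothelial ligand that reports liver iron, did not pass (0.45 ± 0.18, limma adjusted p = 0.0671) unless STZ mouse 3 was left out (0.67, adjusted p = 0.00304), nor did its co-receptor hemojuvelin, listed as Hfe2 (0.21 ± 0.19, from 0.075 to 0.38 with 1 mouse left out), or Tmprss6, the protease that restrains hepcidin (0.07 ± 0.11, with the other sign, -0.20, after median-ratio scaling and -0.019 without Con mouse 1). In STZ+AOS against AOS, Bmp6 was higher (0.58 ± 0.17, limma adjusted p = 0.0132) and Tmprss6 lower (-0.34 ± 0.11, adjusted p = 0.0209), kept in 5 of 6 and 3 of 6 fits that left out 1 of these mice.

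**Figure D5:**
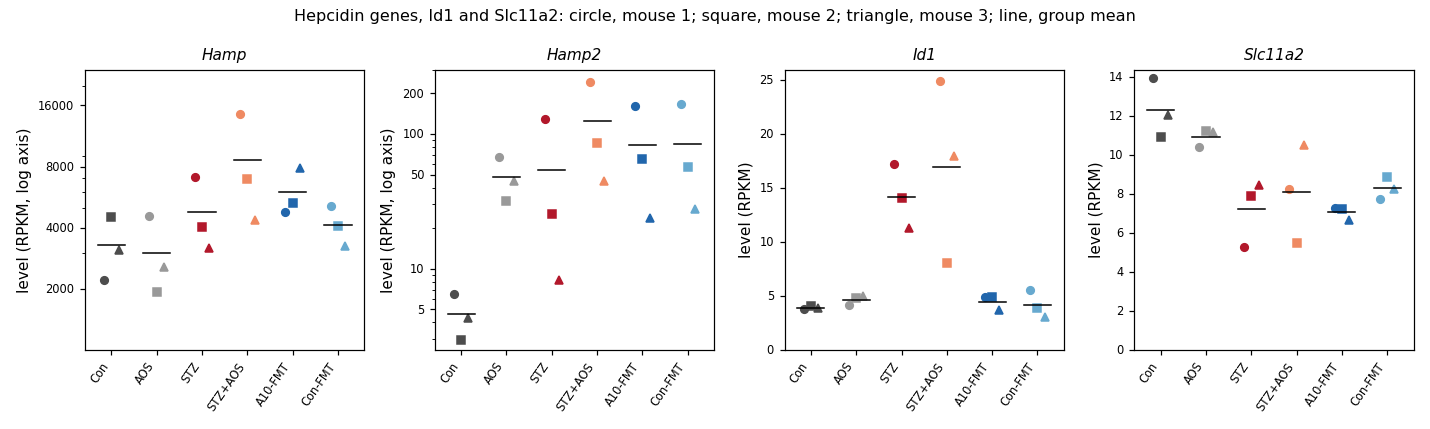
Level (RPKM) of Hamp and Hamp2 (log axes), Id1 and Slc11a2 (linear axes from 0) in the 18 livers, by group; symbols are mice and lines group means. Id1 is at 8.07 RPKM or above in all 6 STZ and STZ+AOS mice and below 6 RPKM in all others, and Slc11a2 is lower in STZ than in Con.

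Of 12 tested genes of cell iron uptake, sensing and storage, 5 were higher and 2 lower in STZ than in Con (2 and 2 after median-ratio scaling). The shares of all genes were 33% higher and 5.52% lower (14% and 13.1% after that scaling). In STZ+AOS against AOS 4 were higher and 0 lower (1 and 1 after it), beside 31.8% and 6.11% of all genes (12.2% and 12.2% after it). Slc11a2, the divalent metal transporter, was at 13.9, 10.9 and 12.03 RPKM in Con and at 5.26, 7.89 and 8.47 RPKM in STZ, and it fell by 0.71 ± 0.14 (limma adjusted p = 0.00383). Every STZ mouse lay below every Con mouse, and it was also lower than Con in A10-FMT (-0.72, adjusted p = 0.00977) and Con-FMT (-0.51, adjusted p = 0.032, called in 2 of 6 fits that left out 1 mouse), which share the Con mice. In STZ+AOS against AOS, at 8.22, 5.49 and 10.52 against 10.4, 11.2 and 11.2 RPKM, the groups overlapped and the change of -0.43 ± 0.18 did not pass as deposited (limma adjusted p = 0.0644) but passed after median-ratio scaling (-0.65, adjusted p = 0.0244), with values from -0.62 without STZ+AOS mouse 3 to -0.21 without STZ+AOS mouse 2. The iron regulatory protein gene Ireb2 was 0.41 ± 0.10 higher (0.16, adjusted p = 0.316, after median-ratio scaling) and the iron chaperone gene Pcbp2 0.68 ± 0.14 higher, while Aco1, the other iron regulatory protein, did not pass (0.16 ± 0.13, limma adjusted p = 0.334; 0.027 without Con mouse 1 and 0.29 without Con mouse 2). Ncoa4, the receptor that carries ferritin to lysosomes, was 0.52 ± 0.16 higher (0.26, adjusted p = 0.208, after median-ratio scaling, and 0.32, adjusted p = 0.0931, without STZ mouse 2), and was called in 3 of 6 fits that left out 1 mouse. Fbxl5, which degrades Ireb2 protein, and Slc39a8, a close relative of Slc39a14, did not pass (0.23 ± 0.10, or 0.14 without STZ mouse 1, and 0.25 ± 0.13).

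Of 11 genes of mitochondrial iron and iron-sulfur clusters, 7 were higher and 0 lower in STZ than in Con (3 and 0 after median-ratio scaling), beside 33% of all genes higher (14% after that scaling). In STZ+AOS against AOS 3 were higher and 0 lower (2 and 2 after median-ratio scaling), near the 31.8% of all genes called higher there. After that scaling 12.2% of all genes were called higher and 12.2% lower. Among those higher in STZ were the cluster assembly genes Isca1 (0.74 ± 0.11) and Nfs1 (0.44 ± 0.09), the latter not called after median-ratio scaling (limma adjusted p = 0.127). Of 13 genes of heme handling, 5 were higher and 1 was lower (1 and 1 after median-ratio scaling), near the shares of all genes, 33% and 5.52% (14% and 13.1% after that scaling). Flvcr2 (1.40 ± 0.28) and the heme transporter Slc48a1 (0.51 ± 0.12) were higher, with the call of Slc48a1 lost after median-ratio scaling (limma adjusted p = 0.0811), and the porphyrin exporter Abcg2 was lower (-0.77 ± 0.25, limma adjusted p = 0.035), a call kept in 2 of 6 fits that left out 1 mouse. In STZ+AOS against AOS 6 heme genes were higher and 2 lower (3 and 2 after median-ratio scaling). Beside these, 31.8% of all genes were called higher and 6.11% lower (12.2% and 12.2% after that scaling). Hmox1, the inducible heme oxygenase that frees iron from heme, was higher in every STZ mouse than in every Con mouse but did not pass (0.53 ± 0.35, limma adjusted p = 0.25), and its change was 0.16 without STZ mouse 2. Hp, which binds free hemoglobin (-1.08 ± 0.51), and Lcn2, which binds bacterial siderophores (-1.47 ± 1.14), did not pass either. With 1 mouse left out, Hp ran from -1.63 without STZ mouse 2 (limma adjusted p = 0.0277) to -0.76 without Con mouse 1, and Lcn2 from -2.81 without Con mouse 2 (adjusted p = 0.0452) to -0.60 without Con mouse 1.

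Markers of liver cell types were read in the same libraries. Of the 6 hepatocyte markers, Ttr (-0.92 ± 0.20), Apoa1 (-0.70 ± 0.23) and Serpina1a (-1.604 ± 0.33) were lower in STZ than in Con. Tat, an enzyme of tyrosine breakdown, was higher (1.27 ± 0.26), and Alb (-0.0079 ± 0.28) and Apob (0.23 ± 0.12 as deposited, -0.044 after median-ratio scaling) did not pass. The same 3 were lower and 1 higher after median-ratio scaling and in STZ+AOS against AOS. Of all genes, 5.52% were called lower in STZ than in Con (13.1% after that scaling). In STZ+AOS against AOS 6.11% were called lower (12.2% after it) and 31.8% higher. Of 11 Kupffer cell and macrophage markers, of which C1qb was the most abundant, 2 were higher in STZ than in Con, Timd4 and the scavenger receptor gene Marco, and their summed level was 199, 132 and 178 RPKM in Con and 314, 381 and 193 RPKM in STZ. Of 9 endothelial markers, led by Clec4g, 2 were higher, and of 6 stellate cell markers, led by Dcn, 1 was higher. After median-ratio scaling the counts were 1 Kupffer cell (Marco), 1 endothelial and 0 stellate cell markers higher, and the shares of all genes called higher were 33% as deposited and 14% after that scaling. The erythroid markers, led by Hba-a1, summed to 3124, 1582 and 2513 RPKM in Con and to 614, 2614 and 2399 RPKM in STZ, so the groups overlapped. Among them Alas2, the erythroid enzyme of heme synthesis, was at 117, 114 and 121 RPKM in Con and at 3.59, 9.75 and 43.4 RPKM in STZ. Neutrophil markers, led by S100a8, summed to 10.3, 2.98 and 7.49 RPKM in Con and to at most 4.29 RPKM in STZ. Marco, Timd4 and Alas2 were singled out after their values were seen, and the part of these cells in the changes of the 10 genes was not tested.

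By Pearson's r of log2(RPKM + 1) over the 18 libraries, the genes with the pattern most like Fth1 were Got1 (0.989), D17Wsu92e (0.986) and Pir (0.986). For Tfrc they were Fam177a and 1700047I17Rik2 (both 0.943), which hold identical values in all 18 libraries and may be the same transcripts under 2 symbols, and Acer2 (0.943), and for Slc39a14 they were Pcna (0.942), Ppl (0.937) and Ppp6c (0.935). These coefficients describe libraries that share groups and scaling.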

How the data were processed

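Liver RNA of 18 mice was read from poly(A) libraries. The authors deposited 1 RPKM value per gene and library; the methods name SOAPaligner, and the submitters' processing notes list Bowtie 0.12.2 and mm10. RPKM hold no counts, so count tests were not used. All 18 columns were matched to samples by title. A gene was kept if 3 or more libraries held 1 RPKM or more, and a pseudocount of 1 went in before log2. The linear models were run in limma 3.58.1 under R 4.3.3 (eBayes with trend), on 12 libraries for Con, STZ and the transplants (10602 genes) and on 18 for comparisons with AOS (10822 genes), with Benjamini-Hochberg adjustment within each comparison and a threshold of 0.05. The fit was tested on simulated data: for STZ against Con, 89 of 100 genes changed by 1 and 100 of 100 changed by 2 on the log2 scale were recovered among 10621. In that fit 10 unchanged genes were called. All changed genes were raised and no shift of all genes was simulated, so recovery of smaller changes or under such a shift was not tested. No libraries held identical values. Named genes were the members, 16 fixed iron genes and the 3 smallest adjusted p-values of each list, of which 1 is not reported here. The members and lists were chosen with earlier results of these data known. Alternatives covered scaling, pseudocount, filter, trend, libraries fitted, a replicate block and leaving out each mouse. AOS and STZ+AOS were known from sample labels alone.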

Additional observations from a re-analysis of the deposited data

How the results depend on the processing

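The count of members called was 4 in STZ against Con (3 to 6 under other settings), 4 in STZ+AOS against AOS (3 to 5) and 6 for the averaged effect (4 to 7), and it was 0 under every setting tried in the 6 comparisons with none called. In A10-FMT against Con the count of 4 fell to 1 after median-ratio scaling, to 1 after quantile normalization, to 2 without the filter and to 2 with the replicate block, and leaving out 1 mouse at a time gave 0 to 5. In Con-FMT against Con the count of 3 fell to 1 after quantile normalization, and leaving out 1 mouse gave 1 to 5. Trf in the averaged effect changed sign after quantile normalization (0.28), as did Fbxl5 (-0.017); the cause was not tested. Of 45 pairs of mice with the same number in different groups, 15 deviated together at r over 0.1 (r from -0.251 to 0.481). The median r was 0.035, against -0.012 for other pairs, and the numbers were not taken as pairs. Of 18 libraries, 9 correlated best with their own number, which was not set against the count that chance would give. With the replicate block, members called stayed at 4 in STZ against Con and went from 6 to 7 in the averaged effect, while calls over all genes in STZ against Con went from 4087 to 3714. RPKM hold no read counts, so the counting error of a value is unknown, and 3 mice per group limit the precision.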

Other observations

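Hamp2 was highest in the mouse numbered 1 in 6 of 6 groups, and Hfe in 5 of 6, which was seen only after the values were read. In AOS mice it was at 67.9, 31.8 and 44.7 RPKM, all above the 6.50, 2.96 and 4.32 RPKM of Con, a change of 3.12 ± 0.89 that did not pass the adjustment (limma adjusted p = 0.524, unadjusted p = 0.00312). The level of Hamp over that of Hamp2 was 339.96 to 1519 in Con and 57.4 to 67.3 in AOS.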
